A study of Mus musculus with 13 samples.

Results

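The vitamin D receptor gene, Vdr, and the 3 retinoid X receptor genes, Rxra, Rxrb and Rxrg, were followed through 13 RNA-seq libraries of mouse incisors. They are 4 of the 34709 genes in the deposited count table and were chosen by name, not by any measured value. All 4 passed the filter on low counts, which kept 17837 genes. The libraries came from whole lower incisors, taken from males on postnatal day 5, and fall into 3 VDRgem mutants, 5 VDR-null mutants and 5 controls, which the series calls wild type. VDRgem is a knock-in mouse line whose altered receptor is known to answer synthetic gemini analogs but not the natural hormone, while the receptor of VDR-null mice is known not to function. The labels give no strain, no treatment and no description of either allele. The labels call the incisors independent without tying a library to an animal, and p-values therefore cover only the spread from library to library.

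The vitamin D receptor is a nuclear receptor, a transcription factor switched by the hormone calcitriol. It binds DNA as a pair with a retinoid X receptor, typically at vitamin D response elements made of repeated hexamers, and exchanges corepressors for coactivators once the hormone is bound. Retinoid X receptors are shared partners, which also pair with the retinoic acid, thyroid hormone, PPAR and liver X receptors. In teeth, enamel-forming ameloblasts and dentin-forming odontoblasts are known to carry the vitamin D receptor, and loss of vitamin D signalling is known to impair mineralization.

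The shallowest library, control 2, held 20405188 counts and the deepest, VDRgem 3, held 87783466. Levels are given as CPM, counts scaled to library size, after TMM scaling, or, where genes are compared with each other, per kilobase of exon as well (RPKM). The libraries held transcripts listed for both tooth-forming cell types, with a mean log2 CPM of 10.4 to 11.7 over 8 secretory ameloblast markers and of 8.77 to 9.75 over 8 odontoblast markers. These lists are not independent, as Dspp is in both, and the odontoblast list shares Ifitm5 with that of osteoblasts. Markers of oral keratinocytes separated VDRgem 1 and 2 from the rest, while VDRgem 3 lay within the control range. Their mean log2 CPM over the 14 of 16 markers tested was 8.69, 6.93 and 3.06 in VDRgem 1, 2 and 3, against -0.11 to 1.79 in VDR-null and 0.23 to 3.33 in control. The other 2, Flg and Ivl, did not pass the low-count filter. Of these 14, 13 were called higher in VDRgem than in control, as were 4.8% of all genes. Markers of dividing cells were at 4.22 to 4.38 in VDRgem, 4.28 to 5.60 in VDR-null and 5.11 to 5.51 in control.

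Sequence upstream of the RefSeq start sites (GRCm38.p6, the assembly called mm10) is shown because the receptor pair acts through DNA hexamers and because these genes are the pair's own. Each window is the longest stretch, in the 250 bases before a start, that lies outside annotated exons. Capitals mark the hexamer GGGCGG, a GC box, and AGGTCA, one form of the hexamer in vitamin D and retinoid response elements, each on either strand.
Vdr (chr15:97908311-97908546, minus strand): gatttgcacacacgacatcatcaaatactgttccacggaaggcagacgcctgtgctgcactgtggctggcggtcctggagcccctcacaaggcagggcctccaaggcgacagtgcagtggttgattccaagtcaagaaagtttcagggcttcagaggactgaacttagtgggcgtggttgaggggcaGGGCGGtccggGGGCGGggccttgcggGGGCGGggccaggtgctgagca
Rxra window 1 (chr2:27676951-27677200, plus strand): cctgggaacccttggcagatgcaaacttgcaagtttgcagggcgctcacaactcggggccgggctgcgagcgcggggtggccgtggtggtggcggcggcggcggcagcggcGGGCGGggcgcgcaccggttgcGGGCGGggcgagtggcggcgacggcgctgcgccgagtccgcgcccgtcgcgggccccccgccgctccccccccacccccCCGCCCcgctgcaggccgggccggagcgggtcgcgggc
Rxra window 2 (chr2:27709042-27709291, plus strand): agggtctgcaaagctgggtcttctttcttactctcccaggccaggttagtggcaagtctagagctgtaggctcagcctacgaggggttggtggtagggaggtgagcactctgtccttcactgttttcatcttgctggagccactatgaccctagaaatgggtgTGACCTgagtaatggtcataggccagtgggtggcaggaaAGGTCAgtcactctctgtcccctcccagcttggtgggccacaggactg
Rxrb (chr17:34031683-34031811, plus strand): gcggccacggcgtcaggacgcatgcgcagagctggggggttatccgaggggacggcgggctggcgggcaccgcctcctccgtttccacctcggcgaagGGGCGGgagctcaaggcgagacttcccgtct
Rxrg window 2 (chr1:167618015-167618264, plus strand): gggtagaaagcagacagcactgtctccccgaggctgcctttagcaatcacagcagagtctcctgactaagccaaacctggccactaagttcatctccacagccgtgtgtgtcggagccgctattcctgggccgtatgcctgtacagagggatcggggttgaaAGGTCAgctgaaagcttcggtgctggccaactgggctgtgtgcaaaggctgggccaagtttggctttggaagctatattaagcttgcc
The Vdr window held 3 GC boxes and was 61.9% G or C. Rxra window 1 also held 3 and was 81.2% G or C, and the Rxrb window held 1 and was 72.1%. The median over all windows was 52.4%. GC boxes were found in 32.7% of 32851 windows of 250 bases, in 32.3% of windows of 236 bases, the length for Vdr, and in 27.2% of windows of 129 bases, the length for Rxrb. Single AGGTCA hexamers were found 2 times in Rxra window 2 and 1 time in Rxrg window 2, and in 14.0% of all windows of 250 bases. Rxrg window 1, which is not printed, was 49.2% G or C and held neither hexamer. No window of the 4 genes held the full repeat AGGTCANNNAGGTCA, which was found in 2 of the 32851 windows. Other forms of the response element hexamer were not searched for, so these counts do not cover all such elements. A match of letters is not a bound site.

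Vdr (ENSMUSG00000022479, chr15:97854425-97910630, minus strand, mm10) encodes the receptor that both mutants alter. Its transcript was present in every library. It stood at 107, 205 and 179 CPM in VDRgem 1, 2 and 3. In VDR-null it stood at 213, 253, 260, 204 and 281 CPM, and in control at 176, 166, 154, 180 and 142 CPM. All 5 VDR-null libraries lay above all 5 controls, while VDRgem 1 was the lowest of all, VDRgem 3 lay within the control range and VDRgem 2 within the VDR-null range. Counts summed over a gene cannot tell one exon from another, so these levels check neither genotype. In bulk tissue, fewer cells that carry a transcript and less of it per cell cannot be told apart.

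**Figure D1:**
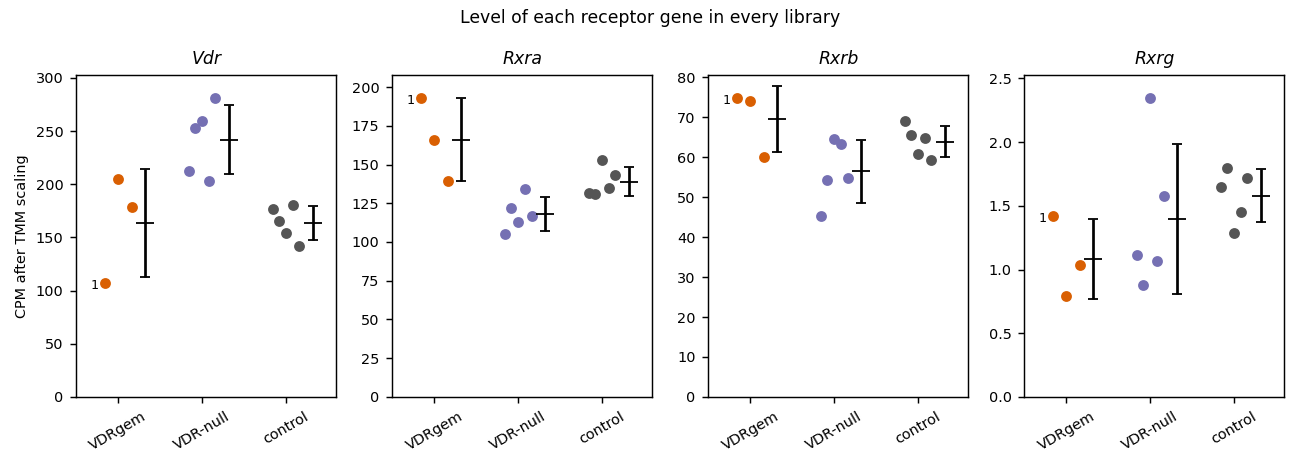
Level of each receptor gene (CPM after TMM scaling, linear axes from 0) in every library of VDRgem, VDR-null and control, with the mean and SD of each group as a cross bar and whiskers, and VDRgem 1 numbered. All VDR-null points for Vdr, 204 to 281 CPM, lie above the control points, 142 to 180 CPM, and VDRgem 1 has the lowest Vdr and the highest Rxra level.

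Relative to control, Vdr had a log2 fold change of 0.56 in VDR-null (SE 0.15, 95% interval 0.24 to 0.88). It missed the threshold of 0.05 in edgeR's quasi-likelihood test, Benjamini-Hochberg adjusted across the 17837 genes (adjusted p = 0.0618), and DESeq2 put it past the threshold at 0.0107. The two-sided exact permutation test of log2 CPM gave p = 0.00794, the smallest that 5 against 5 libraries allow. Of all genes tested, 3.91% had every VDR-null library above every control. Leaving out 1 library at a time kept the log2 fold change between 0.50 and 0.62, and only the fit without VDRgem 1 passed (adjusted p = 0.0254), a library that enters this comparison through the shared spread, the scaling and the filter.

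In VDRgem, the Vdr log2 fold change against control was -0.0014 (SE 0.17, 95% interval -0.37 to 0.37). It moved both ways with single libraries, to 0.22 without VDRgem 1 (adjusted p = 0.469 in edgeR's quasi-likelihood test) and to -0.20 without VDRgem 2, where it missed the threshold as well. Between the mutants, Vdr was lower in VDRgem by a log2 fold change of -0.56 (SE 0.18). That passed edgeR's quasi-likelihood test at an adjusted p of 0.0397, whereas the exact permutation test gave p = 0.0714, with 0.0357 the smallest possible for 3 against 5. The groups overlapped, because VDRgem 2 at 205 CPM was above VDR-null 4 at 204 CPM. The call held in 4 of the 13 fits that left out 1 library, those without VDRgem 2, VDRgem 3, VDR-null 4 or control 5. Without VDRgem 1 the log2 fold change was -0.34 and the adjusted p 0.166, and without each of the other libraries the adjusted p was 0.0501 to 0.0759. VDRgem 1 is also the library with the most keratinocyte transcript. With the keratinocyte level as a covariate the difference was -0.31 (adjusted p = 0.875). The covariate is itself highest in VDRgem 1 and 2, and that fit called 10 genes in all between the mutants. The lost call therefore cannot tell a keratinocyte part from the genotype.

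Rxra (ENSMUSG00000015846, chr2:27676440-27762957, plus strand) encodes the retinoid X receptor that is the usual partner of the vitamin D receptor in many tissues. It stood at 193, 166 and 139 CPM in VDRgem 1, 2 and 3. In VDR-null it stood at 105, 122, 113, 134 and 117 CPM, and in control at 131, 131, 153, 135 and 143 CPM. Every VDRgem library was above every VDR-null library, and the controls lay between and overlapped both.

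Between the mutants Rxra was higher in VDRgem, at a log2 fold change of 0.49 (SE 0.10, 95% interval 0.27 to 0.71, adjusted p = 0.00867 in edgeR's quasi-likelihood test). The exact permutation test gave p = 0.0357, the smallest possible. Of all genes tested, 10.6% were called higher in that comparison and 9.17% had every VDRgem library above every VDR-null library. Without VDRgem 1 the log2 fold change was 0.36 and missed the threshold (adjusted p = 0.0793). Against control the differences were 0.26 in VDRgem (SE 0.10, adjusted p = 0.147) and -0.23 in VDR-null (SE 0.09, adjusted p = 0.153). Leaving out VDRgem 3 brought Rxra past the threshold in VDRgem against control, at 0.37 (adjusted p = 0.0312).

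Rxrb (ENSMUSG00000039656, chr17:34031812-34038399, plus strand) encodes a retinoid X receptor made in most tissues. It stood at 74.7, 74.0 and 60.1 CPM in VDRgem 1, 2 and 3. In VDR-null it stood at 45.3, 54.3, 64.6, 63.2 and 54.7 CPM, and in control at 68.9, 65.5, 60.9, 64.9 and 59.2 CPM. The 3 groups overlapped. The log2 fold changes were 0.12 in VDRgem against control (SE 0.11, adjusted p = 0.542), -0.18 in VDR-null against control (SE 0.10, adjusted p = 0.282) and 0.30 in VDRgem against VDR-null (SE 0.11, adjusted p = 0.0691), by edgeR's quasi-likelihood test. Leaving out VDRgem 3 or VDR-null 3 took the last of these past the threshold, at 0.42 (adjusted p = 0.0205) and 0.36 (adjusted p = 0.0355).

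Rxrg (ENSMUSG00000015843, chr1:167598384-167639623, plus strand) encodes the retinoid X receptor with the narrowest distribution, known from skeletal muscle and brain. It was scarce, with 36 to 107 counts per library. It stood at 1.42, 0.79 and 1.04 CPM in VDRgem 1, 2 and 3. In VDR-null it stood at 1.12, 0.88, 2.34, 1.07 and 1.58 CPM, and in control at 1.65, 1.80, 1.29, 1.45 and 1.72 CPM. VDR-null 3 was the highest of all and VDRgem 2 the lowest, and the groups overlapped. The log2 fold changes were -0.54 in VDRgem against control (SE 0.30, 95% interval -1.19 to 0.11), -0.20 in VDR-null against control (SE 0.26, interval -0.76 to 0.36) and -0.34 in VDRgem against VDR-null (SE 0.30, interval -0.99 to 0.31). Adjusted p in edgeR's quasi-likelihood test was 0.307, 0.694 and 0.448 in that order. VDR-null 3 also held the highest mean log2 CPM over 6 skeletal muscle markers, 6.13, against -2.24 to 2.31 in the other VDR-null libraries, 1.47 to 4.90 in VDRgem and -0.83 to 1.46 in control. The part of muscle RNA in the Rxrg level was not tested.

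Counted over the 4 genes, edgeR called 0 in VDRgem against control, where 8.62% of all genes were called, and 1, Rxra, had an unadjusted p under 0.05, as did 23.9% of all genes. DESeq2 and limma-voom also called 0 there. Between VDR-null and control edgeR called 0, against 1.33% of all genes, while Vdr and Rxra had an unadjusted p under 0.05, as did 22.8% of all genes. There DESeq2 called 1 and limma-voom 0, where they called 1561 and 248 genes in all. In VDRgem against VDR-null the calls were 2, Vdr lower and Rxra higher, by each of the 3 tools, where 18.8% of all genes were called by edgeR. In that comparison 3 of the 4, all but Rxrg, had an unadjusted p under 0.05, as did 34.8% of all genes. The comparisons share libraries and are not independent of each other. The series' own selection asks for p below 0.05 together with a log2 fold change beyond 0.3 in either direction. Read as an unadjusted p, it took 0 of the 4 in VDRgem against control, where it took 19% of all genes, Vdr in VDR-null against control, where it took 13.2%, and Vdr, Rxra and Rxrb in VDRgem against VDR-null, where it took 27.5%.

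**Figure D2:**
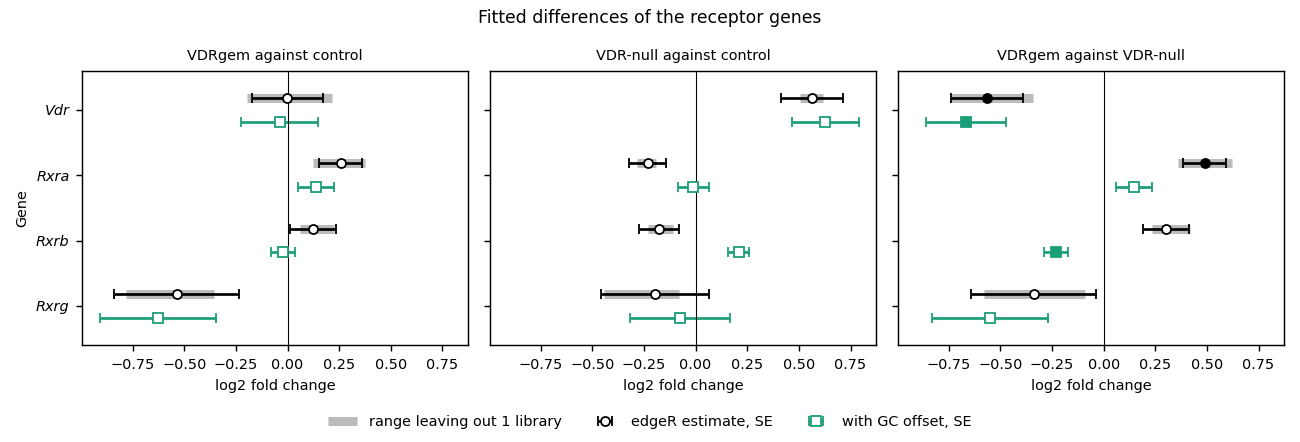
Fitted log2 fold changes of the 4 receptor genes in each comparison (circles, edgeR estimate with SE), the range when 1 library is left out (grey bars) and the estimate after an offset for transcript GC content (squares, with SE), filled where the adjusted p is under 0.05. Vdr is at 0.56 in VDR-null against control, and in VDRgem against VDR-null Rxra moves from 0.49 to 0.15 and Rxrb from 0.30 to -0.23 once the GC offset is applied.

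Fold changes between these libraries followed the G and C content of transcripts, and the 4 genes sit in the upper part of that range. Genes were divided into deciles by the GC content of their longest transcript. In the decile with the highest GC content, which holds Rxrb at 61.4%, the median log2 fold change of all genes was 0.11 in VDRgem against control, -0.30 in VDR-null against control and 0.40 in VDRgem against VDR-null. Rxrb itself was at 0.12, -0.18 and 0.30, near those medians. In the decile of Rxra, at 57.0% GC, the medians were 0.04, -0.17 and 0.18, beside values of 0.26, -0.23 and 0.49 for Rxra. In the decile of Vdr, at 52.4% GC, the medians were 0.01, -0.04 and 0.03. Vdr was near the first of these in VDRgem against control, whereas its log2 fold change exceeded that of 97.1% of the decile's genes in VDR-null against control and of 6.4% in VDRgem against VDR-null.

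**Figure D3:**
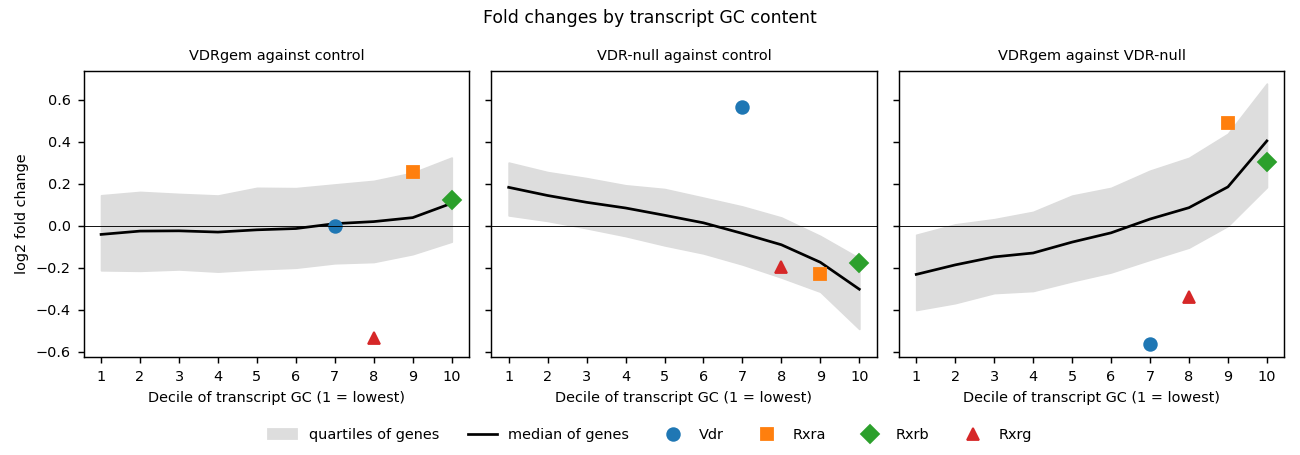
Log2 fold change against the decile of transcript GC content (1 = lowest) in each comparison, with the median (line) and quartiles (band) of all genes and the 4 receptor genes as symbols. The median of the highest decile is at -0.30 in VDR-null against control and at 0.40 in VDRgem against VDR-null. In those comparisons Rxra and Rxrb lie closer to the line than Vdr does, at 0.56 and -0.56.

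With an offset for a smooth GC trend in each library, an alternative chosen after the data were seen, the Vdr values were -0.04, 0.63 and -0.67 in the same order of comparisons, and the last was again called (adjusted p = 0.0344). The Rxra difference between the mutants was 0.15 and no longer passed (adjusted p = 0.270). The Rxrb difference between the mutants changed sign to -0.23 and passed edgeR's quasi-likelihood test (adjusted p = 0.0215). Relative to control, Rxrb in VDR-null also changed sign, to 0.21 (adjusted p = 0.0892), and Rxra was at -0.01. The direction of Rxrb in either mutant therefore depended on whether GC content was modelled, and the higher Rxra in VDRgem than in VDR-null was not called once it was. The offset is fitted to each library without regard to genotype. It would also take out any GC-linked difference between the genotypes, so these changes do not show why the values moved.

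Per kilobase of exon, Vdr and Rxra were among the most abundant nuclear receptor transcripts of the incisor. Among the 48 nuclear receptor genes in the table, in controls, Rarg, a retinoic acid receptor, had the highest mean at 46.6 RPKM, followed by Thra, a thyroid hormone receptor, at 37.4 RPKM. Vdr came next at 29.0 ± 2.79 RPKM (SD, n = 5), and then Rxra at 25.4 ± 1.71 RPKM. Nr1h2, a liver X receptor, at 17.6 RPKM, and Rxrb, at 16.1 ± 0.976 RPKM, followed, and Rxrg was at 0.688 ± 0.091 RPKM. Control ranges of Vdr, 25.2 to 31.9 RPKM, and Rxra, 24.0 to 28.0 RPKM, overlapped, as did those of Nr1h2 and Rxrb, so neither pair has a settled order. With the length of the longest transcript in place of all exons, Thra had rank 1 and Rarg rank 2 in control, and Rxra had rank 5, behind Nr1h2.

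**Figure D4:**
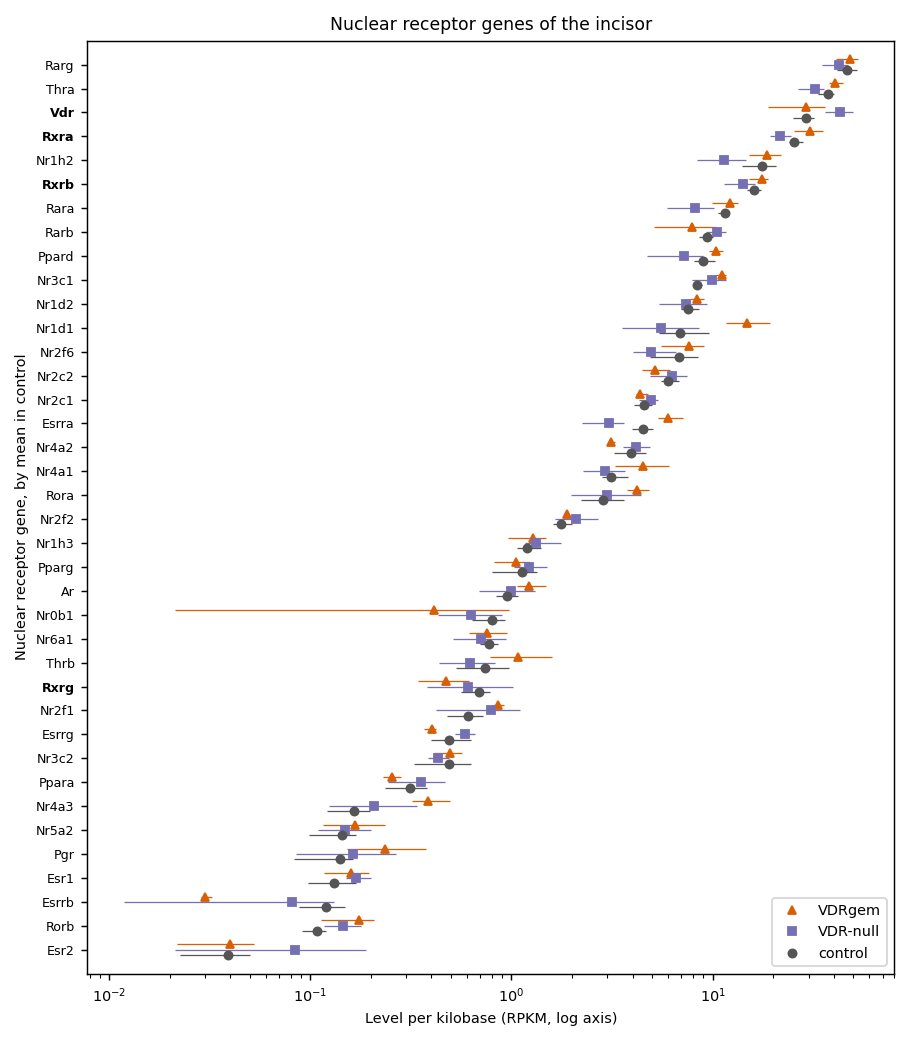
Mean level per kilobase (RPKM, log axis) of the nuclear receptor genes shown, all past the low-count filter, in VDRgem (triangles), VDR-null (squares) and control (circles), with lines from the lowest to the highest library and the 4 genes of the receptor pair in bold. Vdr is the highest in VDR-null, at 42.8 RPKM, and has rank 3 in control, at 29.0 RPKM.

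By mean, that order differed in the mutants. Vdr averaged 29.0 ± 9.0 RPKM in VDRgem (n = 3), where it had rank 4 by mean. There its range of 18.9 to 36.3 RPKM overlapped that of Rxra, 25.5 to 35.3 RPKM. Of the VDRgem libraries, only VDRgem 1 had Vdr below Rxra. In VDR-null Vdr averaged 42.8 ± 5.78 RPKM (n = 5), where it had rank 1 by mean. Its VDR-null range of 36.0 to 49.7 RPKM overlapped that of Rarg, which reached 47.1 RPKM. Rxra averaged 30.4 ± 4.90 RPKM in VDRgem and 21.6 ± 2.01 RPKM in VDR-null. Rxrb averaged 17.5 ± 2.08 RPKM in VDRgem and 14.2 ± 1.97 RPKM in VDR-null, and Rxrg 0.472 ± 0.138 RPKM and 0.608 ± 0.256 RPKM in the same groups.

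The balance of the receptor to its partners can be read as a ratio of levels per kilobase within a library. The ratio of Vdr to Rxra was 0.537, 1.20 and 1.24 in VDRgem 1, 2 and 3. In VDR-null it was 1.96, 2.00, 2.23, 1.47 and 2.33, and in control 1.30, 1.22, 0.974, 1.29 and 0.961. Every VDR-null library was above every other library, and VDRgem 2 and 3 lay inside the control range. Vdr alone already set every VDR-null library above every control, as for 3.91% of all genes tested. No such share was computed for ratios of genes. Vdr set against the sum of the 3 retinoid X receptor genes gave 0.618 ± 0.236 in VDRgem (SD, n = 3), 1.18 ± 0.186 in VDR-null (n = 5) and 0.688 ± 0.073 in control (n = 5). The sum itself was 48.4 ± 6.87 RPKM in VDRgem, 36.4 ± 3.59 RPKM in VDR-null and 42.2 ± 1.02 RPKM in control. These are ratios of transcripts, and the GC trend touches their denominators more than Vdr.

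Within that sum Rxra held the largest share in every group. It made up 62.7 ± 1.58% in VDRgem, 59.5 ± 2.94% in VDR-null and 60.2 ± 2.89% in control. The share of Rxrb was 36.3 ± 1.75% in VDRgem, 38.9 ± 2.38% in VDR-null and 38.2 ± 2.76% in control. Rxrg held 0.977 ± 0.241% in VDRgem, 1.67 ± 0.667% in VDR-null and 1.64 ± 0.245% in control. The ranges of the 3 groups overlapped for Rxra and for Rxrb. The share of Rxrg was 0.699 to 1.13% in VDRgem libraries and 1.27 to 1.90% in controls. Among single genes, 10.3% of all tested had every VDRgem library below every control, and the Rxrg level itself overlapped between these groups and was not called.

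Across the 13 libraries the log2 levels of Rxra and Rxrb had a Pearson correlation of 0.741, and 0.493 as deviations from the group means. Vdr and Rxra had a correlation of -0.769, and -0.566 as deviations. Vdr and Rxrb had -0.466, and 0.015 as deviations. VDRgem 1 had both the lowest Vdr and the highest Rxra level of all libraries, and these correlations are not given without it. These values describe libraries that share scaling and carry the GC trend, whose size (median deviation of the highest less the lowest GC decile) was 0.573, 0.372 and -0.049 in VDRgem 1, 2 and 3, -0.736 to 0.065 in VDR-null and -0.094 to 0.344 in control.

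Each receptor gene was compared with 14164 other genes that have a symbol and a mean of at least 1 CPM. Those most like Vdr among them by Pearson correlation of log2 CPM over the 13 libraries were Brinp1 at 0.951, Tmem165 at 0.933, Pdgfd at 0.926 and Adgrv1 at 0.917. Over the 10 libraries without VDRgem these were 0.943, 0.961, 0.936 and 0.881. The genes most like Rxra were Azin2 at 0.961, C77080 at 0.959, Cep170b at 0.956 and Ldlrad4 at 0.954. For Rxrb they were Ppp6r1 at 0.973, Lypla2 at 0.972, Ppp1r16a at 0.971 and Csk at 0.970. These 4 companions of Rxrb have a transcript GC content of 57.6 to 61.4%, as Rxrb has 61.4%. For Rxrg they were lower, Ackr2 at 0.806, Vps16 at 0.800, Mfsd2a at 0.792 and Trmo at 0.781. The 4 companions of Vdr, itself at 52.4% GC, were at 39.8 to 50.0%. Of those of Rxra, itself at 57.0%, Ldlrad4 was at 44.4% and the others at 59.7 to 60.7%. Those of Rxrg, itself at 54.6%, were at 50.6 to 54.2%. All values are descriptions over libraries that share groups and GC trend.

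Of the other nuclear receptors that pair with retinoid X receptors, 12 of 15 listed were tested. EdgeR made calls among them between the mutants, and none against control. In VDRgem against control it called 0, where 8.62% of all genes were called, and DESeq2 and limma-voom also called 0. There 2 had an unadjusted p under 0.05, as did 23.9% of all genes. The median log2 fold change was 0.08 beside 0.00 over all genes. Setting VDR-null against control, edgeR called 0, where 1.33% of all genes were called, and 4 had an unadjusted p under 0.05, as did 22.8%. DESeq2 called 2 and limma-voom 1, where they called 1561 and 248 genes in all. The median was -0.11 beside 0.01 over all genes. In VDRgem against VDR-null 5 were higher and 1 lower, where 10.6% of all genes were called higher and 8.18% lower, and the median was 0.26 beside -0.02.

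Nr1h2, a liver X receptor that answers oxysterols, averaged 62.5 ± 11.3 CPM in VDRgem (SD, n = 3) and 38.3 ± 7.61 CPM in VDR-null (n = 5), a log2 fold change of 0.71 (adjusted p = 0.0129 in edgeR's quasi-likelihood test). Rara, a retinoic acid receptor, averaged 53.4 ± 8.59 CPM in VDRgem and 35.7 ± 6.86 CPM in VDR-null (0.58, adjusted p = 0.0158). Ppard, a fatty acid receptor, averaged 78.3 ± 5.94 CPM in VDRgem and 54.2 ± 11.7 CPM in VDR-null (0.53, adjusted p = 0.0272). Thra averaged 187 ± 15.7 CPM in VDRgem and 148 ± 17.2 CPM in VDR-null (0.34, adjusted p = 0.0343). The other calls were Nr4a1, higher at 0.63, and Nr4a2, lower at -0.40, both early-response receptors. Without VDRgem 1 none of the 12 passed in this comparison, where 434 genes were called in all, against 3346 in the main fit. With the GC offset 1 was higher and 1 lower, where 1042 genes were called higher and 1534 lower in all. The median of the 12 was then -0.18. Without VDRgem 2, Rara, Ppard and Thra missed (adjusted p from 0.0617 to 0.137), as did Thra without VDR-null 1 or VDR-null 4 (0.0607 and 0.0649). With the GC offset Thra changed sign, to -0.12, and Nr1h2, Rara and Ppard were at 0.21, 0.15 and 0.42 with adjusted p from 0.0576 to 0.317.

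**Figure D5:**
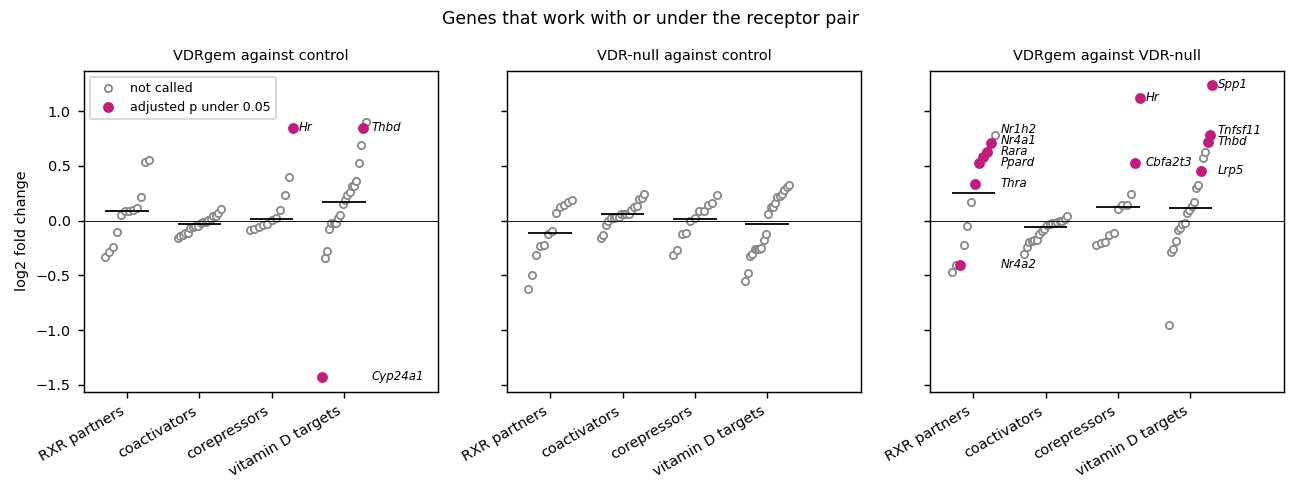
Log2 fold change of the tested genes shown from 4 lists, the other receptors that pair with retinoid X receptors (RXR partners), the coactivators, the corepressors and known vitamin D targets, in each comparison, with a bar at the median of all tested genes of each list and filled, named points where the adjusted p is under 0.05. VDRgem against control has 3 such points, Hr, Thbd and Cyp24a1, VDR-null against control has none, and the coactivators have none in any comparison.

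None of the coactivators of the pair, 18 of 18 tested, was called in any comparison without a GC correction. They include the p160 factors Ncoa1, Ncoa2 and Ncoa3, the Mediator subunit Med1, which binds the hormone-bound receptor, and the acetyltransferases Crebbp and Ep300. EdgeR called 0 in each of the 3 comparisons, and DESeq2 and limma-voom also called 0 in each, where edgeR called 8.62%, 1.33% and 18.8% of all genes in VDRgem against control, VDR-null against control and VDRgem against VDR-null. With the GC offset 2 were lower in the last of these, where 1534 genes were called lower in all. At an unadjusted p under 0.05 there were 0 in VDRgem against control, 2 in VDR-null against control (Ncoa6 and Kat2b, both higher) and 3 in VDRgem against VDR-null (Med1, Med14 and Med17, all lower), beside 23.9%, 22.8% and 34.8% of all genes in that order. The median log2 fold changes were -0.04, 0.06 and -0.06, beside 0.00, 0.01 and -0.02 over all genes, and the single values ran from -0.16 to 0.11, from -0.16 to 0.25 and from -0.31 to 0.04.

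Among the corepressors, 12 of 12 tested, 1 was called higher in VDRgem than in control, where 4.8% of all genes were. It was Hr, the hairless protein, which binds the vitamin D receptor and is needed with it for the hair cycle. Hr averaged 114 ± 57.6 CPM in VDRgem, with the libraries from 68.1 to 179 CPM, against 52.7 ± 7.12 CPM in VDR-null and 63.7 ± 3.21 CPM in control. The log2 fold change was 0.84 against control (SE 0.22, adjusted p = 0.0301) and 1.12 against VDR-null (SE 0.22, adjusted p = 0.00613), by edgeR's quasi-likelihood test. Without VDRgem 1 it was 0.35 against control and missed the threshold (adjusted p = 0.217), and it also missed without each of the 5 controls (0.0561 to 0.0672). With the keratinocyte level as a covariate the difference from control was -0.10, in a fit that called 0 genes in that comparison. Against VDR-null it was 0.63 without VDRgem 1 and 0.52 with the GC offset, both past the threshold (adjusted p = 0.0267 and 0.0448), and 0.31 with 1 surrogate variable and 0.036 with the keratinocyte covariate, both short of it (0.247 and 0.986).

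Cbfa2t3, a corepressor of the ETO family, averaged 13.3 ± 0.108 CPM in VDRgem and 9.22 ± 1.24 CPM in VDR-null (SD, n = 3 and n = 5), a log2 fold change of 0.52 (adjusted p = 0.020 in edgeR's quasi-likelihood test). It missed the threshold without VDRgem 1 (adjusted p = 0.0899), without VDRgem 2 (0.0531) and with the GC offset (0.233). Between VDR-null and control 0 of the 12 passed in edgeR, with 4 at an unadjusted p under 0.05, beside 1.33% and 22.8% of all genes. DESeq2 called 2 and limma-voom 1, where they called 1561 and 248 genes in all. The list's median log2 fold changes were 0.02, 0.01 and 0.12 in VDRgem against control, VDR-null against control and VDRgem against VDR-null, beside 0.00, 0.01 and -0.02 over all genes.

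Cyp24a1 (ENSMUSG00000038567, chr2:170482708-170497145, minus strand) encodes the hydroxylase that breaks down calcitriol and is the textbook target of the receptor pair. It was barely detected, with 10, 7 and 9 counts in VDRgem 1, 2 and 3. It had 13, 11, 12, 13 and 16 counts in VDR-null and 9, 9, 22, 24 and 29 in control. Scaled to depth these were 0.152 ± 0.041 CPM in VDRgem (SD, n = 3), 0.306 ± 0.133 CPM in VDR-null (n = 5) and 0.404 ± 0.090 CPM in control (n = 5). Every VDRgem library was below every control, as for 10.3% of all genes tested.

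The log2 fold change of Cyp24a1 was -1.43 in VDRgem against control (SE 0.39, adjusted p = 0.0364 in edgeR's quasi-likelihood test), and 3.82% of all genes were called lower there. It was -0.47 in VDR-null against control (SE 0.32, adjusted p = 0.388) and -0.95 in VDRgem against VDR-null (SE 0.39, adjusted p = 0.101), so a difference between the mutants was not shown. Cyp24a1 passed the low-count filter only through VDR-null and control libraries, so its being tested favoured a lower VDRgem level. Without that filter the call against control was lost (-1.43, adjusted p = 0.0711 in edgeR's quasi-likelihood test). With the filter, the call held in 5 of the 13 fits that left out 1 library. It was lost without any single control or VDRgem library (adjusted p from 0.0506 to 0.117). The annotation has 83 exon bases of Cyp24a1 in common with Pfdn4 on the other strand. The strand setting of the counting is not given, so reads of the pair there cannot be told apart.

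Of the 24 listed vitamin D targets, 20 were tested. In VDRgem against control 1 was higher, Thbd, and 1 lower, Cyp24a1, where 4.8% of all genes were called higher and 3.82% lower. The median log2 fold change was 0.17. Thbd, the thrombin receptor thrombomodulin, averaged 92.2 ± 6.85 CPM in VDRgem, 55.9 ± 11.4 CPM in VDR-null and 51.4 ± 3.44 CPM in control. Its log2 fold change was 0.84 against control (SE 0.13, adjusted p = 0.0076) and 0.72 against VDR-null (SE 0.13, adjusted p = 0.00509), by edgeR's quasi-likelihood test. It passed against control in all 13 fits that left out 1 library and with the GC offset (0.80, adjusted p = 0.00824), and missed with the keratinocyte level as a covariate at a like size (0.83, adjusted p = 0.195).

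For VDR-null against control, edgeR, DESeq2 and limma-voom each called 0 of the 20 targets, where edgeR called 1.33% of all genes. An unadjusted p under 0.05 was found for 3, as for 22.8% of all genes, and the median log2 fold change was -0.03. Between VDRgem and VDR-null 4 were higher and 0 lower, where 10.6% of all genes were called higher and 8.18% lower, with a median of 0.11 beside -0.02 over all genes. Besides Thbd these were Spp1, the matrix protein osteopontin, at 436 ± 106 CPM in VDRgem and 185 ± 52.1 CPM in VDR-null (1.24, adjusted p = 0.017 in edgeR's quasi-likelihood test), Tnfsf11, the osteoclast factor RANKL (0.78, adjusted p = 0.0282), and Lrp5, a Wnt coreceptor (0.45, adjusted p = 0.0231). Without VDRgem 1 only Thbd of the 4 passed, in a fit that called 434 genes in all between the mutants. Lrp5 and Tnfsf11 also missed without VDRgem 2 (0.0515 and 0.0626), and Tnfsf11 without VDR-null 1 or VDR-null 4 (0.0538 and 0.0545). Lrp5 was at 0.22 with the GC offset (adjusted p = 0.142), 0.28 with library totals alone (0.112) and 0.05 with the keratinocyte covariate (0.974). Spp1 was at 0.77 with 1 surrogate variable (0.395) and 0.45 with the keratinocyte covariate (0.889). Between the mutants, 8 of 8 osteoclast markers were positive and 2 called higher, with a median log2 fold change of 0.77. This was not particular to osteoclasts. Of osteoblast and osteocyte markers 8 of 9 were positive and 2 called higher (median 0.30), and of maturation ameloblast markers 7 of 8 and 4 (0.70). Positive markers numbered 14 of 14 for oral keratinocytes, but 3 of 8 for odontoblasts, 1 of 6 for skeletal muscle and 0 of 8 for dividing cells. Osteoclast markers had a mean log2 CPM of 3.34 to 4.40 in VDRgem and 2.04 to 3.49 in VDR-null. The part of any cell type in the Spp1 difference was not tested. S100g, Fgf23 and Slc30a10 had at most 8, 6 and 15 counts in any library and were not tested.

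In the whole nuclear receptor family, 39 of 49 listed genes were tested. In VDRgem against control 4 were higher and 1 lower, where 4.8% of all genes were called higher and 3.82% lower. Nr1d1, the circadian repressor REV-ERB alpha, averaged 45.8 ± 12.2 CPM in VDRgem, 17.1 ± 6.32 CPM in VDR-null and 21.3 ± 4.87 CPM in control, with a log2 fold change of 1.10 against control (adjusted p = 0.0222 in edgeR's quasi-likelihood test) and 1.41 against VDR-null (adjusted p = 0.00515). Nr3c1, the glucocorticoid receptor, averaged 85.8 ± 5.71 CPM in VDRgem and 64.0 ± 2.55 CPM in control (0.42, adjusted p = 0.0275). Nr4a3, an early-response receptor, was at 2.31 ± 0.576 CPM in VDRgem and 0.985 ± 0.183 CPM in control (1.25, adjusted p = 0.0265). Esrrb, an orphan receptor, was at 0.181 ± 0.012 CPM in VDRgem and 0.724 ± 0.147 CPM in control (-1.96, adjusted p = 0.0392). Esrrb passed the low-count filter only through libraries of the other groups. The calls of these genes were near the threshold. Against control, without VDRgem 1 the adjusted p was 0.149 for Nr1d1 and Nr3c1, 0.157 for Nr4a3 and 0.164 for Esrrb. Nr1d1 also missed without control 1, 2, 4 or 5, Nr4a3 without control 3, 4 or 5, Nr3c1 without control 2, 3, 4 or 5 or VDRgem 3, and Esrrb without any single control or VDRgem library (0.0546 to 0.164).

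In VDR-null against control edgeR called 0 of the 39, with 11 at an unadjusted p under 0.05, beside 1.33% and 22.8% of all genes. DESeq2 called 4 and limma-voom 1, where they called 1561 and 248 genes in all. In VDRgem against VDR-null 10 were higher and 3 lower, Vdr and Rxra among them, where 10.6% of all genes were called higher and 8.18% lower. With the GC offset 6 were higher and 3 lower, where 1042 genes were called higher and 1534 lower in all. In the main fit the smallest p of the family there belonged to Esrra, an orphan receptor of energy metabolism. It averaged 26.2 ± 4.29 CPM in VDRgem and 13.4 ± 2.5 CPM in VDR-null (0.97, adjusted p = 0.00259 in edgeR's quasi-likelihood test). Esrra and Nr1d1 passed between the mutants in all 13 fits that left out 1 library and with the GC offset. Both missed with 1 surrogate variable (0.70 and 1.12, adjusted p = 0.148 and 0.253), with the keratinocyte covariate (0.65 and 1.09, adjusted p = 0.742 for each) and without VDRgem 1 and 2 (0.80 and 1.05, adjusted p = 0.317 and 0.469). Without VDRgem 1 the family's calls numbered 0 in VDRgem against control, where 66 genes were called in all. In VDRgem against VDR-null they numbered 2, both higher, where 321 genes were called higher and 113 lower in all.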

How the data were processed

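Poly-A RNA of 13 incisors was sequenced from stranded libraries, per the labels' protocols. The deposited values are raw counts per Ensembl gene, for which the submitters' processing notes name HTSeq 0.6.1p1, STAR 2.5.3a, bcl2fastq 2.20.0.422 and the build mm10. Which annotation release, counting mode and strand setting the authors chose is not given in the sources used here, and strand decides how antisense partners are counted. The table held whole numbers for 34709 genes, 1143 of them without a count. No library was a copy of another (within groups, chi-square divided by its degrees of freedom was at least 15.5).

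The GENCODE M21 annotation (GRCm38) gave symbols, exon lengths and the GC content of transcripts. It names 34618 of the genes, and the rest took up to 0.00145% of the counts in any library. RPKM is CPM divided by the merged exon length in kilobases. Depth, 20405188 to 87783466 counts per library, limits scarce genes such as Cyp24a1, Esrrb and Rxrg, and the other 3 receptor genes had at least 1384 counts in each library.

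The quasi-likelihood test of edgeR 4.0.16 (R 4.3.3) was run after TMM scaling and filterByExpr (minimum count 10), with all 13 libraries in 1 fit and no covariate. P-values were Benjamini-Hochberg adjusted over 17837 genes. Exact permutation tests used log2 CPM (prior count 2) and scipy 1.17.1. The fit was tried on simulated counts. Alternatives were DESeq2 1.42.0, limma-voom 3.58.1, other scalings, no filter, fewer groups, 1 surrogate variable (sva 3.50.0), a keratinocyte covariate, the series' own selection and leaving out each library. The keratinocyte level was highest in VDRgem 1 and 2, so that covariate cannot be separated from the VDRgem genotype. A call lost with it does not show why. A GC offset (natural spline with 5 degrees of freedom) and the fit without VDRgem 1 and 2, which hold the most keratinocyte transcript, were added after results were seen. Where 1 VDRgem library is left, its spread is taken to be that of the remaining groups.

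The genes, lists and tests were chosen with earlier results of these data known. The rule named the 4 receptor genes, Cyp24a1, up to 4 called genes of each list per comparison by smallest p, the 4 genes most correlated with each receptor gene, and the 6 most abundant nuclear receptors in control. Nr4a1, Nr4a2 and genes of short counts were named outside it, after their values were seen. Some listed genes are counted but not reported singly or plotted here. Replicate numbers follow accession order and pair nothing. Plots used Python 3.11.15 and matplotlib 3.10.9.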

Additional observations from a re-analysis of the deposited data

Results flagged for a closer look

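By the main fit, the effect of the genotype on Vdr differed between the mutants, which is the VDRgem against VDR-null comparison already given. The log2 effect of VDRgem less that of VDR-null was -0.56, with an adjusted p of 0.0397 in edgeR's quasi-likelihood test. All 5 VDR-null libraries were above all controls, and the VDRgem libraries stood at 107, 205 and 179 CPM. The shared controls cancel in this difference, and without VDRgem 1 it was -0.34 and missed the threshold. It passed in 4 of the 13 fits that left out 1 library, and the exact permutation test gave p = 0.0714.

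The effect on Rxra also differed, by 0.49 with an adjusted p of 0.00867 in the same test. The 3 VDRgem libraries were above all 5 VDR-null libraries. Without VDRgem 1 the difference was 0.36 and with the GC offset 0.15, and neither passed. No library of VDR-null or control stood apart from its group in the level of any of the 4 genes. The widest gap was that of VDR-null 3 for Rxrg, at 0.522 of the group's range, under the critical value of 0.710 for 5 libraries, and groups of 3 were not tested.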

How the results depend on the processing

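No paired analysis was possible because the labels carry no replicate numbers. Each of the 12 member differences was recomputed under 25 alternatives. Leaving out 1 library gave log2 fold changes of -0.20 to 0.22 for Vdr, 0.12 to 0.37 for Rxra, 0.06 to 0.23 for Rxrb and -0.78 to -0.36 for Rxrg in VDRgem against control. In VDR-null against control the ranges were 0.50 to 0.62, -0.28 to -0.19, -0.23 to -0.11 and -0.45 to -0.08 in the same order of genes. In VDRgem against VDR-null they were -0.75 to -0.34, 0.36 to 0.62, 0.23 to 0.42 and -0.58 to -0.09. Rxrg kept its direction and stayed short of the threshold under all 25 alternatives in each comparison, and so did Rxra in VDR-null against control.

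The near-zero Vdr difference between VDRgem and control turned to 0.0033 with DESeq2, 0.0034 with its size factors, 0.0036 without the low-count filter, 0.32 under 1 surrogate variable, 0.21 under the keratinocyte covariate and 0.11 without VDRgem 1 and 2. Under the last 2 settings Rxra was at -0.060 and -0.0088 and Rxrb at -0.20 and -0.10 against control. Rxrb was also at -0.047 with library totals alone, -0.041 with the surrogate variable and -0.024 with the GC offset. Vdr in VDR-null against control passed with DESeq2 (0.56), only the groups compared (0.55), the surrogate variable (0.53), the series' selection (0.56) and without VDRgem 1 and 2 (0.56), at adjusted p from 0.0107 to 0.142 over all alternatives. Between the mutants, Vdr missed with only the groups compared (-0.55), the surrogate variable (-0.21), the keratinocyte covariate (-0.31) and without VDRgem 1 and 2 (-0.45). Rxra missed with the surrogate variable (0.26), the keratinocyte covariate (0.12), without VDRgem 1 and 2 (0.23) and with the GC offset (0.15). Rxrb passed with the series' selection (0.30), and turned to -0.072 with the keratinocyte covariate and to -0.23, past the threshold, with the GC offset, which also put it at 0.21 in VDR-null against control. The cause was not tested.

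The number of genes called moved most. In VDRgem against control it was 1537, and 66 to 2021 with 1 library left out, 2347 with DESeq2, 981 with limma-voom, 8 with the surrogate variable, 0 with the keratinocyte covariate (2563 at an unadjusted p under 0.05 in edgeR), 3385 by the series' selection and 5 without VDRgem 1 and 2. In VDR-null against control it was 238, and 6 to 685 with 1 library left out, 1561 with DESeq2, 448 with upper quartile factors, 703 with only the groups compared, 1129, 89, 2349 and 676 under the last 4 settings above, and 45 with the GC offset. In VDRgem against VDR-null it was 3346, and 434 to 4610 with 1 library left out, 753 with only the groups compared, 53 with the surrogate variable, 10 with the keratinocyte covariate and 32 without VDRgem 1 and 2. Library totals alone moved the median of all genes to -0.17 in VDRgem against control and -0.19 in VDRgem against VDR-null, and split their calls 589 higher and 1576 lower, and 1310 higher and 3616 lower, against 856 and 681, and 1887 and 1459, with TMM. With upper quartile factors the split in VDR-null against control was 147 higher and 301 lower, against 121 and 117. Of 20 calls recomputed for other genes, 15 were lost without VDRgem 1, and 20 without VDRgem 1 and 2, with the surrogate variable and with the keratinocyte covariate. In those 3 fits Thbd stayed at 0.77 to 0.87 and Esrrb at -1.87 to -1.66 against control, beside 0.84 and -1.96. With the keratinocyte covariate Hr turned to -0.10 against control, and with the GC offset Thra turned to -0.12 between the mutants.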
